A study of Rattus norvegicus with 24 samples.

Results

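The genes that a cell switches on in G2 and mitosis were examined in the developing rat brain after 3 maternal treatments. The 40 genes were chosen by name, and 37 of them were found in the deposited table of 17420 genes. Cenpe, Kif4a and Anln were not analysed here. RNA was sequenced from hippocampus and neocortex, dissected together, of 24 Sprague-Dawley pups on embryonic day 18, in 4 groups of 6. Saline dams were injected on gestational day 17. MAM dams received methylazoxymethanol acetate at 22 mg/kg, a DNA methylating agent that harms dividing cells, by the intraperitoneal route on the same day. Poly I:C dams received polyinosine:cytosine at 7.5 mg/kg, a double-stranded RNA that mimics viral infection, by the same route and on the same day. Tissue of these groups was taken 18 hours after injection. Low Protein dams were given a diet with 6.1% protein from gestational day 11 to 18, and control dams a diet of equal energy with 20.3% protein. The Saline group is the only control group in the data and was taken here to be on this control diet. The diet of MAM and Poly I:C dams, any injection of Low Protein dams and the sex of each pup, both sexes being combined, were not given in the sources used here. In each comparison with Saline, the named treatment therefore cannot be told apart from a possible other difference in diet or injection. Each group held 3 pups from each of 2 litters, so that the dam, which was the animal treated, was replicated only 2 times per group. Unless litters are named, p-values measure the spread between pups. Pups are named by litter and pup number.

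In G2 a cell that has copied its DNA prepares to divide, and in mitosis the spindle separates the chromosomes. Cyclin B bound to Cdk1 drives entry, Aurora and Polo-like kinases build the spindle, a checkpoint waits for every kinetochore to be attached, and the anaphase-promoting complex then marks cyclin B and securin for destruction. In the embryonic cortex radial glia and intermediate progenitors divide in the germinal layers while the neurons they produce have left the cycle. Transcripts of these genes are made late in the cycle, under control of promoters that often carry a cell cycle genes homology region (CHR), usually written TTTGAA, downstream of CCAAT boxes bound by NF-Y.

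These 2 motifs were searched in the promoters. Any relation of the motifs to the joint movement of the 37 genes from pup to pup, shown further on, was not tested. Promoters of 32 of the 37 genes were found in RefSeq (assembly GRCr8, from 250 bases before to 50 bases after the start). TTTGAA or its variant TTTAAA, on either strand, was in 93.8% of the 32 and in 26.1% of 18999 protein-coding promoters of the same length. CCAAT was present at 2 or more positions in 62.5% against 12.4%, and both features together were in 56.2% against 3.28%. Of 50 promoters of other G2 and mitosis genes, 68% had TTTGAA or TTTAAA, 38% had CCAAT at 2 or more positions and 30% had both. Of 34 promoters of genes for DNA replication and S phase, 20.6% had TTTGAA or TTTAAA, 35.3% had CCAAT at 2 or more positions and 2.94% had both. These are counts of letters and not of bound sites, and matches of different motifs overlapped in 2 of the 32 promoters. The 250 bases before the start are shown for the mitotic kinase subunits Cdk1, Ccnb1 and Ccnb2, the kinase Plk1, the anaphase activator Cdc20 and the importin Kpna2, which recur in the results. Capitals mark these motifs, read on either strand, and each sequence is written from 5' to 3' toward the start.
Cdk1 (chr20:19265043-19265292, plus strand): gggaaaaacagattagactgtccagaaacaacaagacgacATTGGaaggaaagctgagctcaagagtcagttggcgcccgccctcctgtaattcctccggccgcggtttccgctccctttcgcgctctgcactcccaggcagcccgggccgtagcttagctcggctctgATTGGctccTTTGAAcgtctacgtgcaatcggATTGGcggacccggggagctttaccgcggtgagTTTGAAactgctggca
Ccnb1 (chr2:33655226-33655475, minus strand): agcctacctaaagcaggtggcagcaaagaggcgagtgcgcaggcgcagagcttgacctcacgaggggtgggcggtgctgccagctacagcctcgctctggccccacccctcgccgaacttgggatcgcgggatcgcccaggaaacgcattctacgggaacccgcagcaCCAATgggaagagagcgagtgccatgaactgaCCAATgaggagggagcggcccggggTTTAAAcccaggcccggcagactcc
Ccnb2 (chr8:79981659-79981908, minus strand): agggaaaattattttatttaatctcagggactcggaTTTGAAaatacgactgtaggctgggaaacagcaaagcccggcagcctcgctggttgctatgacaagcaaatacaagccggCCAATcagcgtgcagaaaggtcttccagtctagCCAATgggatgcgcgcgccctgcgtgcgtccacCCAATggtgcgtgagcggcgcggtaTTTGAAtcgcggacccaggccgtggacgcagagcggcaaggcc
Plk1 (chr1:186147408-186147657, plus strand): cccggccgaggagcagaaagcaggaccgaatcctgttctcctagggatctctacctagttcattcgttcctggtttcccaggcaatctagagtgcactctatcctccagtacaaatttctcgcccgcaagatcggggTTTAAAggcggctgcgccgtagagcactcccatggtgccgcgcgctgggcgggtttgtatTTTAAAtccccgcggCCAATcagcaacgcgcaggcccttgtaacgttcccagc
Cdc20 (chr5:137255800-137256049, minus strand): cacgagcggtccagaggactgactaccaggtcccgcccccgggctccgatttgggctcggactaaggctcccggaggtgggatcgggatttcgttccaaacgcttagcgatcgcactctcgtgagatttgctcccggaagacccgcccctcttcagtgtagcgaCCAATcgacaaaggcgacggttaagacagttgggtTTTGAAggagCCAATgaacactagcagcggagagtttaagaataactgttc
Kpna2 (chr10:92445842-92446091, minus strand): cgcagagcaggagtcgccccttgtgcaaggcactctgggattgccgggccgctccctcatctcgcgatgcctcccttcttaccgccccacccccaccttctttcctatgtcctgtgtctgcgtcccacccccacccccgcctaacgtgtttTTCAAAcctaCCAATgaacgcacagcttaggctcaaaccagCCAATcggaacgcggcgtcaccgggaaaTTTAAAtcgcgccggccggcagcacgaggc
In Ccnb2 the 3 CCAAT matches began at positions -134, -101 and -68 relative to the start and a TTTGAA at -43 lay closer to the start than any of them. Cdc20 had TTTGAA at -51 between CCAAT matches at -86 and -41. Kpna2 had both forms of the CHR letters, at -99 and -30.

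The deposited values are TPM as the authors computed them. They sum to 70350.1 in every pup and appear to have been divided by the genomic span of each gene, an assumption on which the estimated reads given here rest. They were compared between pups and not between genes. The mean of the 37 genes ran from 0.126 for Kif20b to 16.0 for Ccnb2 over 24 pups. No pup was at the floor of 0.0001 for any of them, and the lowest estimated number of reads behind a value was 188. Estimated depth ran from 25.05 to 64.8 M reads (megareads) per pup, with medians of 33.9 M in Saline, 30.8 M in Poly I:C, 42.6 M in MAM and 44.3 M in Low Protein. Log2 values were compared with limma over the 12270 genes whose mean reached 10 estimated reads, and a gene is called here when its unadjusted p is under 0.05. All 37 genes were among the 12270. In bulk tissue fewer cells of a type and less RNA per cell cannot be told apart.

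Against Saline, G2 and mitosis genes had higher mean values in all 3 treatment groups by small amounts, and no gene passed an adjusted p of 0.05 in limma in any of the 3 comparisons, where 0.0163% of all genes passed in MAM and 0% in each of the others. The median log2 fold change was 0.13 in Low Protein, with 37 of 37 genes above 0, against a median of -0.01 over all genes. In MAM it was 0.20, with 34 of 37 above 0, against -0.07 over all genes, of which 71.9% were below 0. In Poly I:C it was 0.16, with 37 of 37 above 0, against 0.00397 over all genes. The 3 comparisons use the same 6 Saline pups and the genes move together, so neither the 3 medians nor the 37 signs are independent of each other.

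At the unadjusted threshold 5 of 37 genes were called higher and 0 lower in Low Protein, where 2.65% of all genes were called higher and 4.63% lower. In MAM 15 of 37 were called higher and 0 lower, where 2.07% of all genes were called higher and 8.02% lower. In Poly I:C 7 of 37 were called higher and 0 lower, where 3.96% of all genes were called higher and 5.58% lower. With a mean above 1 in every group, 1 part of the filter of the study, 5086 genes and 18 of the 37 were tested, and 12 were called higher in MAM (3.07% of all genes), 3 after Poly I:C (4.25%) and 2 in Low Protein (3.66%). Under the deposited scaling 20.5% of all genes called in MAM were higher, and 42.9 to 63% with 4 other scalings, under which 19 to 23 of the 37 genes were called higher and 0 lower. In Low Protein this share was 36.4%, and 50.7% with median of ratios, under which 7 of the 37 were called higher. The lowest adjusted p of the 37 genes in limma was 0.342 in Poly I:C, 0.446 in MAM and 0.667 in Low Protein. The genes called in all 3 comparisons were Cks2 and Kpna2, while 3 genes were called in 2 comparisons, 15 in 1 and 17 in none. A test for any difference among the 4 groups in limma called 7 of 37 genes, namely Cks2, Kpna2, Ccnb2, Ube2c, Birc5, Kif20a and Ect2, where 13% of all genes were called.

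**Figure D1:**
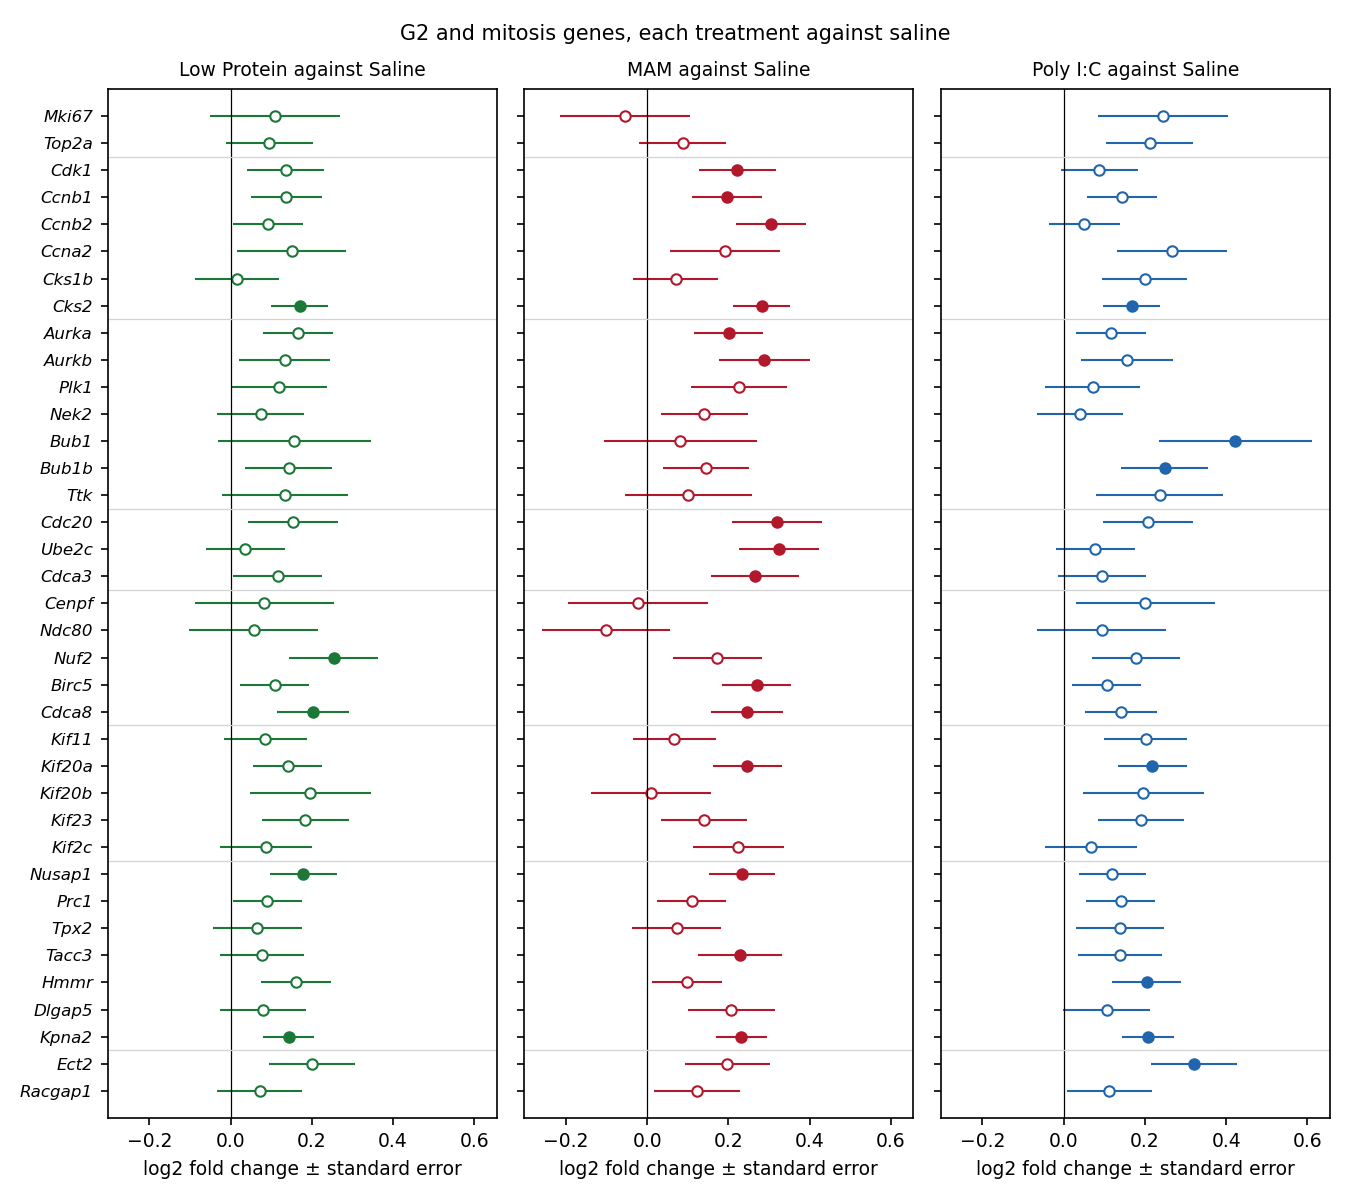
Log2 fold changes (horizontal axis) of the 37 genes (vertical axis, ordered by role, grey lines between roles) in each treatment group against Saline, 6 pups per group. Bars are 1 standard error, and filled points are genes at an unadjusted p under 0.05 in limma, 5, 15 and 7 in the 3 panels. The points of Low Protein and Poly I:C all lie to the right of 0, and 3 of MAM lie to the left.

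The usual markers of proliferation, Mki67 and Top2a, were not called in MAM or in the other comparisons. Mki67, which coats mitotic chromosomes and is the usual label of cycling cells, ranged from 2.02 to 3.00 TPM in Saline with a median of 2.28. It ranged from 1.74 to 3.33 in Low Protein (median 2.73), from 2.03 to 2.69 in MAM (median 2.22) and from 1.72 to 3.72 in Poly I:C (median 3.07). The groups overlapped throughout. Its log2 fold change in MAM was -0.05 ± 0.161 (SE), with adjusted p = 0.909 in limma, and turned to 0.01 when pups were scaled by median of ratios. In Low Protein it was 0.11 and in Poly I:C 0.24, with the same error. Top2a, the topoisomerase that untangles sister chromatids, had 2.22 ± 0.244 TPM in Saline, 2.58 ± 0.356 in Poly I:C, 2.36 ± 0.199 in MAM and 2.39 ± 0.359 in Low Protein (SD, n = 6).

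Of the 6 genes for Cdk1, its cyclins and its Cks subunits, 4 were called higher in MAM (Cdk1, Ccnb1, Ccnb2 and Cks2), and Cks2 alone was called in each of the other comparisons. Cdk1, the kinase that drives mitotic entry, ranged from 1.79 to 2.05 TPM in Saline (median 1.84) and from 1.98 to 2.44 in MAM (median 2.19), with overlap of the highest Saline pup only with the lowest MAM pup. Its log2 fold change in MAM was 0.22 ± 0.0949 (SE), with p = 0.00433 in an exact two-sided permutation test of 6 pups against 6 and adjusted p = 0.491 in limma. In Poly I:C Cdk1 ran from 1.66 to 2.61 TPM, and its litters lay apart, with litter means of 1.72 and 2.33. Ccnb1, or cyclin B1, had 2.89 ± 0.239 TPM in Saline and 3.32 ± 0.354 in MAM (SD, n = 6), and the ranges overlapped. It was not called after Poly I:C (3.20 ± 0.333) or Low Protein (3.19 ± 0.351).

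Ccnb2, or cyclin B2, the partner of Cdk1 at the Golgi and in mitosis, ranged from 13.6 to 15.2 TPM in Saline with a median of 14.8, and from 16.5 to 20.2 in MAM with a median of 17.9. Every MAM pup was above every Saline pup. The log2 fold change was 0.30 ± 0.0870 (SE), with p = 0.00216 in the exact permutation test, the smallest that 6 pups against 6 allow, and adjusted p = 0.482 in limma. Low Protein (12.5 to 17.2 TPM, median 16.3) and Poly I:C (12.8 to 18.3, median 15.2) reached from below the Saline range into that of MAM. Cks2, a small subunit that docks Cdk1 to its substrates, ranged from 1.67 to 2.05 TPM in Saline (median 1.83) and from 2.06 to 2.57 in MAM (median 2.20). Its MAM and Saline ranges did not overlap, and the log2 fold change was 0.28 ± 0.0704 (SE; exact permutation p = 0.00216, adjusted p = 0.446 in limma). Cks2 was also called in Low Protein, at 2.06 ± 0.120 TPM against 1.83 ± 0.128 (SD, n = 6), with a log2 fold change of 0.17. After Poly I:C the log2 fold change was again 0.17, with pup 2.2 at 2.33 TPM, pup 2.3 above it and the others between 1.90 and 1.93.

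Of 7 mitotic kinases and checkpoint genes, 2 were called higher in MAM, namely Aurka (log2 fold change 0.20) and Aurkb (0.29), the kinases of spindle poles and of the inner centromere. In Poly I:C the 2 that were called were other members, the checkpoint kinase Bub1 (0.42 ± 0.189, SE) and the checkpoint protein Bub1b (0.25 ± 0.107). None of the 7 was called in Low Protein, where log2 fold changes ran from 0.07 to 0.17. No gene of the 7 was called between MAM and Poly I:C. Plk1, the Polo-like kinase, was not called in any comparison, with 0.23 ± 0.117 in MAM.

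The 3 genes for protein degradation in mitosis were all called higher in MAM, where 2.07% of all genes were called higher. They were not called in the other comparisons with Saline, but between MAM and either other treatment the difference was called for Ube2c alone. Their log2 fold changes in MAM were 0.32 for Cdc20, which activates the anaphase-promoting complex, 0.32 for Ube2c, the ubiquitin-conjugating enzyme that serves it, and 0.27 for Cdca3. In Low Protein the 3 ran from 0.04 to 0.15 and in Poly I:C from 0.08 to 0.21. Ube2c ranged from 6.41 to 8.77 TPM in Saline (median 7.32) and from 8.87 to 10.2 in MAM (median 9.28). All MAM pups were above all Saline pups, and the log2 fold change of 0.32 ± 0.0973 (SE) had p = 0.00216 in the exact permutation test and adjusted p = 0.482 in limma. Low Protein (6.31 to 9.20, median 7.83) and Poly I:C (6.79 to 10.0, median 7.69) had medians close to that of Saline.

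Among centromere and kinetochore genes, Birc5 (0.27) and Cdca8 (0.25), both parts of the chromosomal passenger complex with Aurkb, were called higher in MAM. Cenpf and Ndc80, an outer kinetochore protein and the core of the microtubule-binding complex, lay at -0.02 ± 0.171 and -0.10 ± 0.158 (SE) in MAM and were not called. With median of ratios scaling Ndc80 alone of the 37 genes was below 0 in MAM, instead of 3. Nuf2, the partner of Ndc80, was called in Low Protein. It ranged from 0.512 to 0.579 TPM in Saline (median 0.537) and from 0.559 to 0.761 in Low Protein (median 0.626), where the lowest pup lay inside the Saline range. The log2 fold change was 0.25 ± 0.109 (SE), with p = 0.00433 in the exact permutation test and adjusted p = 0.671 in limma. Cdca8, or borealin, had 0.802 ± 0.0517 TPM in Saline, 0.890 ± 0.126 in Poly I:C, 0.952 ± 0.0772 in MAM and 0.927 ± 0.103 in Low Protein (SD, n = 6). It was called in Low Protein and MAM, with log2 fold changes of 0.20 and 0.25.

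Of 5 kinesin motors only Kif20a was called, in MAM (0.25) and in Poly I:C (0.22). Kif20a, which acts at the central spindle, ranged from 2.71 to 3.35 TPM in Saline (median 2.89), from 3.15 to 4.05 in MAM (median 3.45) and from 2.92 to 3.90 in Poly I:C (median 3.33). Both treated ranges overlapped with that of Saline. Exact permutation tests gave p = 0.00866 for MAM and p = 0.026 for Poly I:C. Kif20b, a relative that acts in abscission, was at 0.01 ± 0.149 (SE) in MAM.

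Of 7 genes for the spindle and its assembly, Nusap1, Tacc3 and Kpna2 were called in MAM, Nusap1 and Kpna2 in Low Protein, and Hmmr and Kpna2 in Poly I:C. Kpna2, an importin that holds spindle assembly factors until mitosis, ranged from 4.11 to 4.83 TPM in Saline with a median of 4.43. It ranged from 4.63 to 5.21 in Low Protein (median 4.86), from 4.89 to 5.85 in MAM (median 5.09) and from 4.52 to 5.75 in Poly I:C (median 5.13). Only the MAM range lay wholly above that of Saline. The log2 fold changes were 0.14, 0.23 and 0.21 with a standard error of 0.0634 each. Exact permutation p-values were 0.013, 0.00216 and 0.0216, and adjusted p-values in limma were 0.679, 0.446 and 0.342. Hmmr, a microtubule-binding spindle protein, had 0.359 ± 0.0317 TPM in Saline and 0.414 ± 0.0418 in Poly I:C (SD, n = 6), with a log2 fold change of 0.20.

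The 2 cytokinesis genes, Ect2 and Racgap1, were not called in Low Protein or MAM. Ect2, which activates RhoA at the division plane, ranged from 0.185 to 0.271 TPM in Saline (median 0.242) and from 0.269 to 0.351 in Poly I:C (median 0.285). The lowest Poly I:C pup lay just inside the Saline range. The log2 fold change was 0.32 ± 0.106 (SE), with p = 0.00433 in the exact permutation test and adjusted p = 0.359 in limma.

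**Figure D2:**
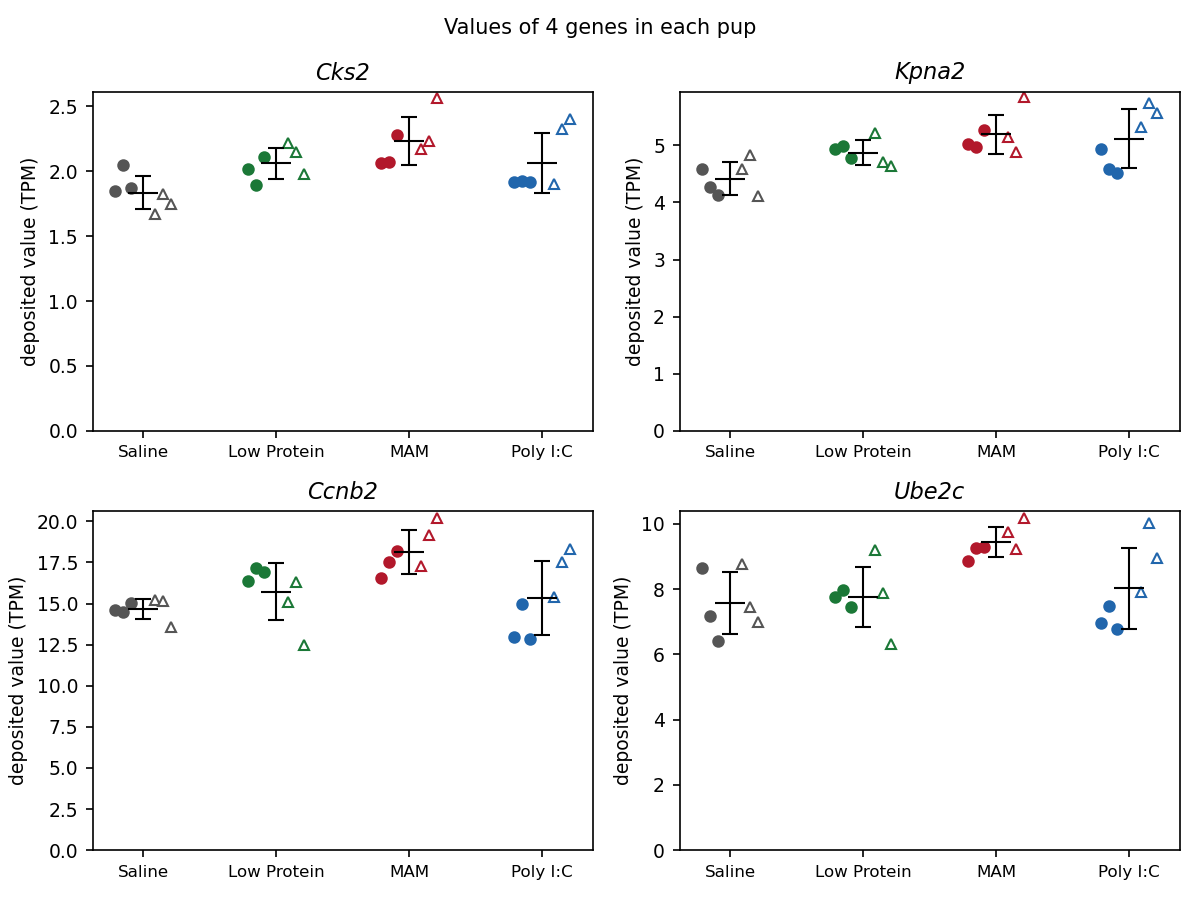
Deposited values (vertical axis, TPM, from 0) of Cks2, Kpna2, Ccnb2 and Ube2c in each pup of the 4 groups. Filled circles are litter 1 and open triangles litter 2, and bars are the mean and SD of 6 pups. In each panel all 6 MAM pups lie above all 6 Saline pups.

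In MAM 4 of 37 genes, Cks2, Kpna2, Ccnb2 and Ube2c, had no overlap between the 6 treated and the 6 Saline pups, all higher, where 0.236% of all genes had no overlap in that direction. No member had such a separation in Low Protein, where 0.155% of all genes did, or in Poly I:C, also 0.155%. When the treatments were compared with each other in the same limma fit, Ccnb2 (log2 difference 0.25 ± 0.0870, SE) and Ube2c (0.25 ± 0.0973) were called higher in MAM than in Poly I:C, where 3.71% of all genes were called higher. The same 2 genes were called lower in Low Protein than in MAM, by -0.21 and -0.29, where 1.53% of all genes were called lower. No member was called between Low Protein and Poly I:C, where 4.62% of all genes were called. None of these differences passed adjustment, as 0.937%, 0.0407% and 0.0163% of all genes did in the 3 comparisons in that order, the lowest adjusted p in limma being 0.122.

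A score was formed for each pup as the mean log2 value of the 37 genes relative to the Saline mean of each gene. It ran from -0.0876 to 0.134 in Saline. In Low Protein it ran from -0.214 to 0.298 with a mean of 0.125 ± 0.178 (SD, n = 6), in MAM from 0.0465 to 0.370 with 0.166 ± 0.110, and in Poly I:C from -0.0841 to 0.409 with 0.166 ± 0.180. Every group overlapped with Saline, and the MAM group alone had all 6 pups above the Saline mean. In Low Protein and Poly I:C the means of the 2 litters lay further apart than the group mean lay from Saline. The litter means of Poly I:C were 0.0353 and 0.296. Those of Low Protein were 0.237 and 0.0125, those of MAM 0.119 and 0.213, and those of Saline -0.0133 and 0.0133.

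**Figure D3:**
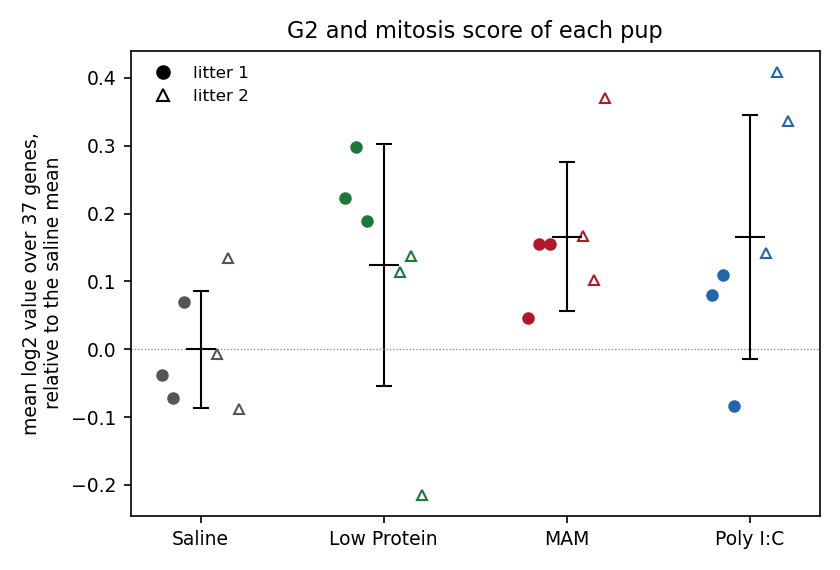
Score of each pup (vertical axis, mean log2 value of 37 genes relative to the Saline mean) by group. Filled circles are litter 1, open triangles litter 2, and bars the mean and SD of 6 pups. Low Protein pup 2.3 lies at -0.214 and MAM pup 2.3 at 0.370, each apart from its group, and Poly I:C litter 2 lies above litter 1.

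The counts of called genes depended on which litter was left out. Without litter 1 of Low Protein 2 genes were called, 1 of them lower, with a median log2 fold change of 0.02, and without litter 2 or without pup 2.3 of Low Protein 13 were called. Of all genes 7.91%, 6.74% and 8.11% were called in these settings in either direction. Without litter 2 of MAM 4 were called (5.01% of all genes), without pup 2.3 of MAM 10 (7.54%), and without litter 1 of Saline 8 (3.45%). In the same comparison 15 were called without litter 1 of MAM (5.79%), the count with all pups, and 13 without litter 2 of Saline (10.7%). Without litter 2 of Poly I:C 0 were called in limma at either threshold (4.58% of all genes at the unadjusted one), and without litter 1 of Poly I:C 28 were called (18.7%). In that last setting Kpna2 passed adjustment, with an adjusted p of 0.0229, as did 260 of the 12270 genes in all. When the 3 pups of a litter were averaged and the 8 litters compared, 5 genes were called in MAM (5.46% of all genes) and 0 in either of the other comparisons. The median stayed above 0 in each comparison in all 46 settings tried, but many of these could not change it. Pups or litters of a group not compared do not enter the median. Changed variance models and averaging over litters of equal size leave it as it was.

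The 37 genes went up and down together among pups of the same group. After group means were removed, the median correlation between 2 of the genes over 24 pups was 0.62, and 98.9% of 666 pairs were above 0. The median was 0.0931 for pairs of 1500 genes drawn from all genes tested. The pups share their library and scaling in both figures, so these are descriptions. Tacc3 (median correlation with the other genes 0.77) and Kif2c (0.77) moved most closely with the list, and Cks1b (0.31) and Bub1 (0.32) least.

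Other genes of the same phases gave similar counts in the same pups and against the same Saline group, so they are not independent of the 37. Of 60 further G2 and mitosis genes 51 were tested, and 14 were called higher in MAM, 10 after Poly I:C and 4 in Low Protein, with none lower. Of all genes 2.07%, 3.96% and 2.65% were called higher in that order. The median log2 fold changes of the 51 were 0.16, 0.15 and 0.11 in that order, against -0.07, 0.00397 and -0.01 over all genes. Those with the lowest p were Gtse1, a microtubule-binding protein of G2 that also restrains p53, and Cdkn3, a phosphatase that acts on cyclin-dependent kinases. Gtse1 had 0.728 ± 0.0836 TPM in Saline and 0.991 ± 0.0696 in MAM (SD, n = 6), a log2 fold change of 0.45 with adjusted p = 0.336 in limma. Cdkn3 had 0.493 ± 0.0243 and 0.616 ± 0.0850, a log2 fold change of 0.31 with adjusted p = 0.446 in limma.

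Genes for DNA replication and S phase, the step before G2, gave other counts across the treatments. Of 40 such genes 0 were called in MAM at the unadjusted threshold in limma. Of all genes 2.07% were called higher there, so the count of higher genes was near that share. Their median log2 fold change in MAM was 0.06, with 28 of 40 above 0, against -0.07 over all genes. In Poly I:C 11 were called higher (3.96% of all genes), with a median of 0.17 and 40 of 40 above 0, against 0.00397. In Low Protein 4 were called higher (2.65%), with a median of 0.09 and 34 of 40 above 0, against -0.01. In MAM against Poly I:C 8 of the 40 were called lower, where 15% of all genes were called lower, a count near that share. Mcm4, a subunit of the replicative helicase, had 2.80 ± 0.335 TPM in Saline, 2.80 ± 0.180 in MAM and 3.50 ± 0.405 in Poly I:C (SD, n = 6). Its log2 fold change in Poly I:C was 0.32 with adjusted p = 0.34 in limma.

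The difference between the 2 scores of a pup, G2 and mitosis minus S phase, does not depend on how a pup is scaled by a single factor. It was computed after the values of both lists were known and is given without a test. In MAM it ran from 0.0887 to 0.160, with a mean of 0.121 ± 0.0266 (SD, n = 6). It ran from -0.0362 to 0.0694 in Saline, from -0.0392 to 0.0725 in Low Protein and from -0.0625 to 0.0409 in Poly I:C. Each of the 6 MAM pups, in both litters, was above each of the 18 other pups. With the 51 further G2 and mitosis genes in place of the 37, the difference ran from 0.106 to 0.128 in MAM, and the highest Saline pup, at 0.111, lay inside that range.

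**Figure D4:**
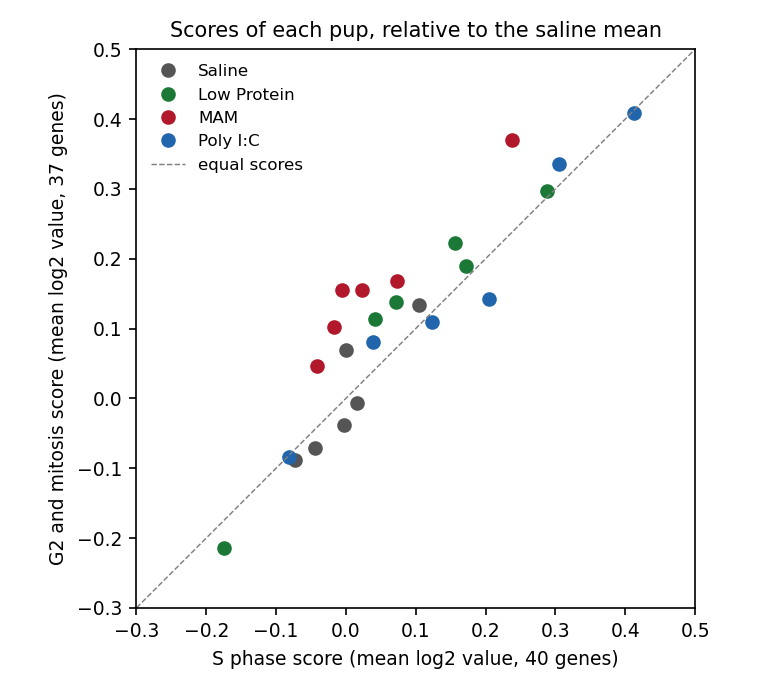
Score of 37 G2 and mitosis genes (vertical axis) against the score of 40 S phase genes (horizontal axis), each the mean log2 value relative to the Saline mean, in 24 pups. The dashed line marks equal scores. The 6 MAM pups lie above it by 0.0887 to 0.160, and pups of the other groups lie within 0.0725 of it.

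In MAM the differences were related to the length of the genes. Across the 37 genes the log2 fold change in MAM and the log2 genomic span had a Pearson correlation of -0.60 and a Spearman correlation of -0.64, where genes are not independent replicates. It was -0.20 (Spearman -0.32) over all 12270 genes, and over the 37 genes 0.28 for Poly I:C and 0.25 for Low Protein. Of the 19 genes with spans up to 22255 bases, 14 were called in MAM, with a median log2 fold change of 0.23. Of the 18 longer genes 1 was called, with a median of 0.10. Of all 12270 genes 10.1% were called in MAM in either direction, a share that was not split by span here. The trend of each pup with span was then removed over all genes, an analysis chosen after the data were seen. In MAM 23 of the 37 were then called with a median of 0.25, where 6.72% of all genes were called in either direction. With that trend removed the score difference from S phase genes ran from 0.0923 to 0.170 in MAM and to at most 0.0784 in the other groups. Median spans were 22255 bases for the 37 genes and 15895 for the S phase genes. RNA quality was not given in the sources used here, and its part in the relation was not tested.

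**Figure D5:**
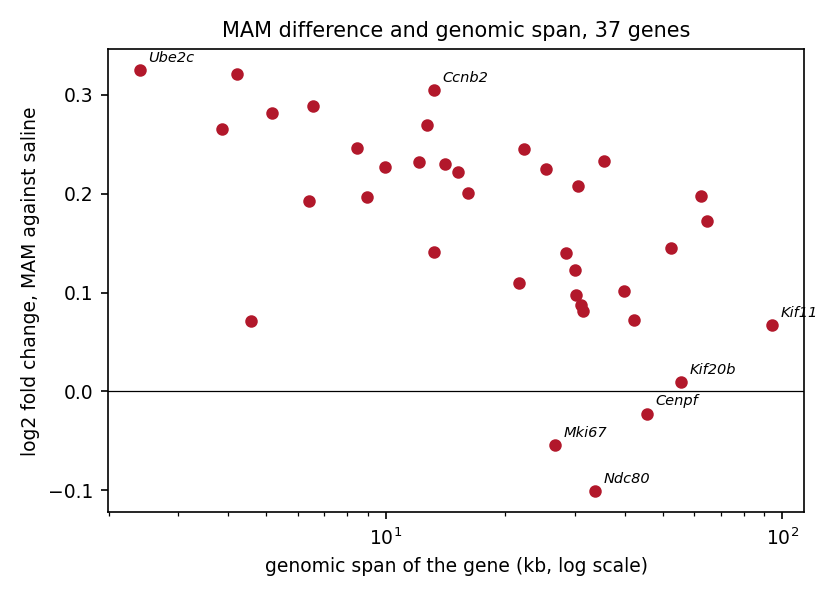
Log2 fold change in MAM against Saline (vertical axis) and genomic span in kilobases (horizontal axis, log scale) of the 37 genes. Ube2c and Ccnb2 lie among the shorter genes near 0.30 and above, and Mki67, Cenpf and Ndc80, at 26.7 kb and longer, lie below 0.

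MAM pups differed from Saline in some genes of the p53 response as well. Of 18 p53 target genes tested 5 were called higher and 1 lower, where 2.07% of all genes were called higher and 8.02% lower. The median log2 fold change of the 18 was 0.03, with 10 above 0 and a range from -0.34 to 1.00. Cdkn1a, the cell cycle inhibitor p21, had 0.566 ± 0.0570 TPM in Saline and 1.13 ± 0.0810 in MAM (SD, n = 6), a log2 fold change of 1.00 with adjusted p = 0.000651 in limma. Aen, a nuclease induced by p53, had a log2 fold change of 0.35 with adjusted p = 0.0338. These were the only 2 of the 12270 genes to pass adjustment in MAM. In Low Protein and Poly I:C Cdkn1a was at -0.08 and 0.02.

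Markers of other cells were counted in the same way, to be read against the shares of all genes called, which were 2.07 to 3.96% higher and 4.63 to 8.02% lower over the 3 comparisons. Ganglionic eminence genes mark tissue next to the cortex and also interneurons that migrate from it into cortex and hippocampus. The paper reports lower Dlx1, Dlx5 and Lhx6 as interneuron genes, by RNA sequencing and by qPCR. Of 9 ganglionic eminence genes tested, 5 were called lower in Low Protein (median log2 fold change -0.43), 3 in MAM (-0.26) and 0 in Poly I:C (-0.16). Their score ran from -0.438 to 0.804 in Saline, -1.23 to -0.0487 in Low Protein, -0.610 to -0.131 in MAM and -0.544 to 0.226 in Poly I:C. Saline pup 2.1 had both the highest ganglionic eminence score, 0.804, and the lowest cortical identity score, -0.681, of the 24 pups. Of 6 cortical identity genes 2 were called higher in Low Protein, and 1 in each of the other comparisons. Of 13 radial glia genes 3 were called higher after Poly I:C, 2 in MAM and 1 in Low Protein. Their mean scores in that order were 0.0979, 0.00439 and 0.0403. Of 6 intermediate progenitor genes 1, 1 and 0 were called higher, with mean scores of 0.212, 0.153 and 0.0496. The intermediate progenitor score ran from -0.0532 to 0.419 in Poly I:C and from 0.05 to 0.327 in MAM. It ran from -0.307 to 0.272 in Low Protein and from -0.229 to 0.211 in Saline, so every group overlapped with Saline. Of 8 microglia genes 3 were called higher in MAM, with a median of 0.19 and a score from 0.0183 to 0.286 there against -0.297 to 0.171 in Saline. Of 12 genes of postmitotic neurons 1 was called lower in each comparison, with medians of -0.09, -0.12 and -0.08, a count near that share of all genes. Of 7 blood genes 1 was called, higher in MAM, and none of 8 endothelial or 7 meningeal genes was called in limma. The part of the tissue's make-up in the results for G2 and mitosis genes was not tested.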

How the data were processed

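The authors trimmed paired reads, aligned them to rn6 with STAR 2.4.1d, quantified them with Partek against RefSeq transcripts and deposited TPM values with an offset of 0.0001. The comparisons used log2 of these deposited TPM values for all 24 pups in limma 3.58.1 (R 4.3.3, lmFit and eBayes, group as the factor), with p-values adjusted by the Benjamini-Hochberg method over all genes tested. No pseudocount was added. Reads were estimated from the steps between low values times genomic span (GRCr8 spans, matched for 97.6% of genes). Only 45.9 to 53.2% of low values lay within 0.05 of a whole read, where chance gives 10%, so no count test was run and depths are approximate. Genes with a mean under 10 estimated reads were left out. For single genes the mean log2 values of 6 and 6 pups were also permuted exactly (two-sided). Scores and gene lists were described without a test. The 37 genes, the other lists and the tests were chosen with earlier results of these data known. Values are given in full for Mki67, Top2a, Cdk1, Ccnb1 and the 4 genes with the lowest limma p in each comparison, and for at most 2 genes of other lists and Cdkn1a. Litters were read from the sample names. Log2 fold changes are differences of mean log2 values. The procedure was checked on simulated data with independent pups, no litter effects and no co-variation of genes. The planted changes were larger than those of the 37 genes, so the check does not cover differences of their size or litters. Promoter sequences came from RefSeq.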

Additional observations from a re-analysis of the deposited data

Results flagged for a closer look

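Among 152 sets of 6 values (37 genes and the score in 4 groups), 13 had a pup whose gap to its nearest neighbour took an unusually large share of the range of its group, measured on log2 values. Chance gives about 1 in 20 such sets, and the genes move together, so the 13 are not separate findings. Low Protein pup 2.3 was low in 8 of them. It had 1.73 TPM of Top2a where the others had 2.30 to 2.73 (gap over range 0.626), 0.375 of Kif11 against 0.499 to 0.589 (0.633), 0.0783 of Kif20b against 0.138 to 0.160 (0.792) and 0.490 of Kif2c against 0.664 to 0.756 (0.702). The same pup had 1.71 TPM of Tacc3 against 2.21 to 2.49 (0.678), 0.487 of Dlgap5 against 0.620 to 0.715 (0.63), 0.721 of Racgap1 against 0.928 to 1.04 (0.685) and a score of -0.214 against 0.114 to 0.298 (0.641). MAM pup 2.3 was high, with 2.68 TPM of Plk1 against 2.29 to 2.42 (0.658), 2.50 of Prc1 against 2.10 to 2.22 (0.685) and a score of 0.370 against 0.0465 to 0.168 (0.626). Poly I:C pup 1.3 was low for Dlgap5, at 0.448 TPM against 0.655 to 0.789 (0.671), and Poly I:C pup 2.2 was high for Ect2, at 0.351 against 0.269 to 0.297 (0.627).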

How the results depend on the processing

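Of 14 alternatives that kept all pups, the number of the 37 genes called at the unadjusted threshold changed by over 1.5 times in these. With a mean above 1 in every group, the part of the study's filter that was applied, only 18 of the 37 genes were tested, so fewer could be called, 12 in MAM, 3 after Poly I:C and 2 in Low Protein. With litter means 5 were called in MAM and 0 in either other comparison. In MAM 23 were called with quantile scaling (7.79% of all genes) and 23 with the span trend removed (6.72%), the latter chosen after seeing the data. When single pups or litters were left out, 1 to 13 genes were called in Low Protein, 4 to 19 in MAM and 0 to 28 in Poly I:C, and 0 to 1 passed adjustment in Poly I:C. In Poly I:C 4.58% of all genes were called where 0 of the 37 were, and 18.7% where 28 were, with 260 of 12270 passing adjustment in the latter. The lowest count was without pup 1.2 in Low Protein and without litter 2 in MAM and Poly I:C. The highest was 13 without pup 2.3 in Low Protein, 19 in MAM without Low Protein pup 2.3, which enters only the shared spread, and 28 in Poly I:C without its litter 1. A litter left out leaves 3 pups in its group. In MAM the log2 fold change of Mki67 was 0.010 with median of ratios and 0.011 with the span trend removed. With pups or litters left out it ran from -0.17 to 0.065. Others that changed sign ran from -0.013 to 0.20 (Top2a in Low Protein), -0.014 to 0.20 (Ccnb2 in Low Protein), -0.015 to 0.094 (Ube2c in Low Protein), -0.13 to 0.30 (Cdk1 in Poly I:C), -0.11 to 0.22 (Ccnb2 in Poly I:C) and -0.090 to 0.24 (Ube2c in Poly I:C). The cause of these changes was not tested. Of the 13 genes followed in every setting no other changed sign, and the signs of the other 24 were not followed here.

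The groups share the numbers 1.1 to 2.3 in the sample names. With these as a replicate block 6, 15 and 7 genes were called. The numbers did not pair the pups: the median correlation of deviations between pups of the same number ran from -0.06 to 0.16, and 4 of 24 pups correlated best with a pup of their own number. Litter as a random block, with an estimated correlation of 0.00818, left the counts at 5, 15 and 7. That correlation was a single consensus value shared by all genes, so the fit was close to the one without litters. The unchanged counts therefore do not measure the part of litter in the mitosis genes, which was not tested. Litter means of their score lay further apart in Poly I:C (0.0353 and 0.296) than in Saline (-0.0133 and 0.0133).

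With 2 litters per group and differences near 0.20 on the log2 scale, against standard errors of 0.0634 to 0.189 between pups, a test over litters had little power. Depth was estimated and not known.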
